A study of Paeonia lutea x Paeonia suffruticosa with 9 samples.

Results

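A small set of transcripts fell at both steps of floral bud development in tree peony ‘High Noon’, a hybrid of Paeonia suffruticosa and Paeonia lutea that can flower again in the same year. RNA-seq libraries were made from buds of plants labelled as 5 years old, with 3 libraries at each of 3 stages and with no treatment at any stage. Stage I was the vegetative meristem (libraries S1_1 to S1_3), stage II the floral meristem (S2_1 to S2_3) and stage III the floral organ (S3_1 to S3_3), as judged by the study on sections of parallel buds. Adjacent scales and leaves had been removed, but the sampled bud is a mixture of cell types. The plants were from 1 farm, and nothing in the labels says whether the libraries of a stage came from separate plants. Abundance was given as FPKM, the number of fragments scaled for the length of the transcript and the size of the library. A transcript was a member when its lowest value of FPKM + 1 in stage I was at least 1.5 times its highest value in stage II, and its lowest value in stage II at least 1.5 times its highest in stage III. Of 137758 transcripts, 72 met this rule, which is 0.0523%, so the limit of 200 transcripts was not reached and all 72 were kept. The tables list more transcripts than the set without redundancy that the study describes, so the total may hold copies of the same transcript that share reads, among the members too. The 26 transcripts that the study had matched to flowering genes were left out beforehand, and none of them met the rule.

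Before the floral transition, the shoot apical meristem gives rise to leaves and bud scales. When it turns into a floral meristem, genes that specify the meristem as floral are switched on, and MADS-domain factors such as SEPALLATA3, PISTILLATA and APETALA1 then give the floral organs their identity. The members studied here fell at both of the sampled steps, and whether they belong to the vegetative programme is not known from these data. The deposited names are those of long-read clusters and pair no member with a gene. The study’s annotation of the transcripts was not used here, so the members are described by cluster number, length and level, and no function is given to them. A name such as that of c66472 ends in the numbers of full-length (f) and other (p) long reads of the cluster and in the length of the transcript. No sequence was included with these values, so none is shown.

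The stage labels were read beside 9 transcripts that the study had matched to PI, SEP3, AP1, UFO and SEPALLATA2. In Arabidopsis these genes mark the floral meristem and its organs. The study listed the 9 as differentially expressed in these same libraries, so they cannot check the labels independently. Their FPKM, summed per library, lay between 2.04 and 3.02 at stage I. It lay between 15.1 and 35.7 at stage II, and between 69.1 and 159 at stage III. In stage I, 3 to 6 of the 9 were at 0 in a library, and in stage III none was. LFY (c105452), from the same list but not among the 9, overlapped between stages I and II. It was at 1.95, 2.52 and 0.05 in stage I and at 3.93, 3.61 and 2.45 in stage II. The libraries held 20065002 to 25195520 fragments. Library S1_3 stood apart from its replicates, with a squared correlation of log2(FPKM + 1) across transcripts of 0.861 and 0.851 with S1_1 and S1_2, against 0.950 between these. Its estimated fragment length was also shorter, at 253 bp against 285 to 296 bp in the other libraries. The RNA integrity numbers and mapping rates reported by the study were lower in each stage I library than in any later library. These differences follow the stages, so their part in the members' levels cannot be told apart from that of stage. Markers of leaf, scale or other bud tissue were not examined, since the count tables carry no gene names and the study’s annotation was not used here.

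The fall of c66472 (932 bp) was the steepest by the ranking of the rule, which divides the lowest stage I value by the highest stage III value. Its FPKM was 894, 1071 and 601 in stage I, 7.18, 14.1 and 26.8 in stage II, and 0.94, 0.78 and 0.94 in stage III. Stage means of FPKM + 1 fell 50.3-fold at the first step and 9.03-fold at the second, or 454-fold in all. Each stage I library had 8701 to 13877 fragments of the transcript, and each stage III library 10.6 to 13.8. These values chose the transcript, so they are given as a description and carry no test, and the same holds for the steps of all members below. In a bud of many cell types, fewer cells of a type and less RNA per cell cannot be told apart.

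A similar course was seen in c98492 (926 bp), with an FPKM of 1081, 1147 and 435 in stage I, 10.9, 17.3 and 45.0 in stage II, and 2.90, 2.45 and 1.59 in stage III. It fell 34.9-fold and then 7.67-fold. In c264056 (1135 bp) the FPKM was 288, 310 and 143 in stage I, 1.72, 9.48 and 15.1 in stage II, and 0.81, 0.62 and 0.47 in stage III. The stage II libraries of this transcript were widely spread, and its lowest stage II value cleared the highest stage III value by 1.503 times, the smallest gap among the members. For c29237 (1049 bp) the values were 565, 674 and 221, then 12.2, 23.8 and 42.4, then 6.47, 4.46 and 2.37. In these 4 transcripts S1_3 was the lowest library of stage I, and S2_1 the lowest and S2_3 the highest of stage II.

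**Figure D1:**
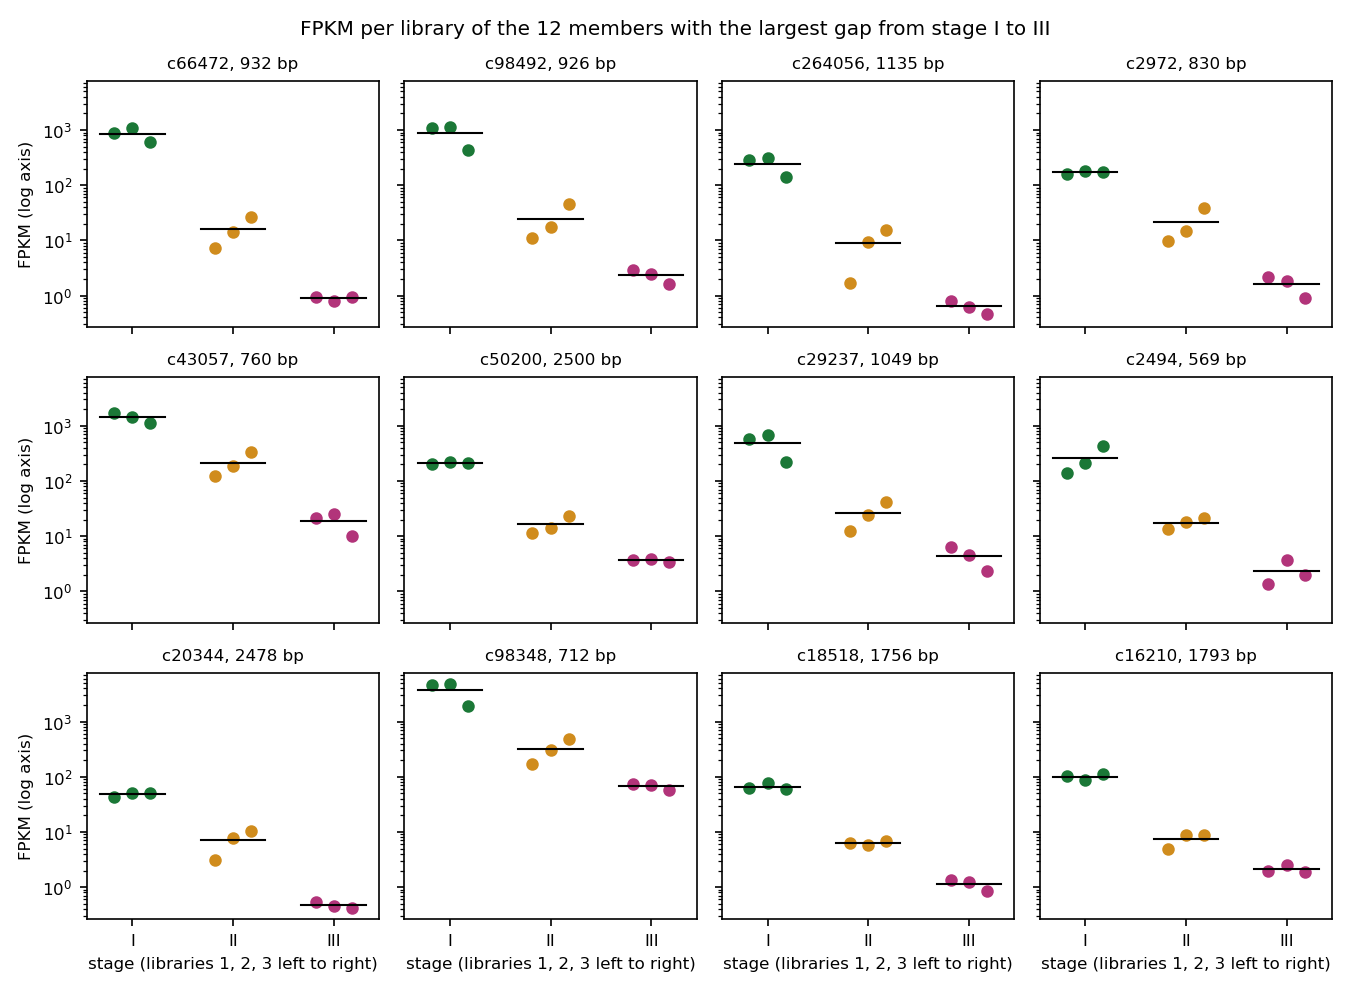
FPKM on a log axis in each library of the 12 members with the largest gap between stages I and III, with stages I, II and III from left to right and the stage mean as a line. The stages do not overlap in any panel, as the rule requires, and stage II climbs from S2_1 to S2_3 in most panels, such as from 7.18 to 26.8 for c66472.

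Other members among the 12 steepest started from a steady level in stage I. In c50200 (2500 bp) the FPKM was 199, 224 and 208 in stage I, 11.3, 14.2 and 23.6 in stage II, and 3.67, 3.89 and 3.47 in stage III. For c2972 (830 bp) it was 156, 178 and 176, then 9.77, 15.03 and 39.4, then 2.17, 1.86 and 0.89, so that the second step (8.48-fold) was as steep as the first (7.65-fold). The level of c20344 (2478 bp) was 43.9, 49.9 and 51.6 in stage I, 3.15, 7.83 and 10.4 in stage II, and 0.54, 0.46 and 0.42 in stage III. The SD of the stage I libraries was 4.05 to 12.6 FPKM in these 3 transcripts (n = 3), and S1_3 was not set apart in them.

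In c18518 (1756 bp) all 3 stages were narrow, at 63.4, 76.4 and 59.5, then 6.28, 5.76 and 6.90, then 1.35, 1.24 and 0.86. The same was true of c16210 (1793 bp) in stage I, at 102, 87.7 and 110, before 4.86, 8.97 and 8.88 in stage II and 1.92, 2.54 and 1.87 in stage III. With 27 full-length reads, c16210 was also among the members best supported by long reads. In c2494 (569 bp) S1_3 was instead the highest library of stage I, at 426 against 137 and 211, and stage II was at 13.4, 17.7 and 21.2 and stage III at 1.36, 3.67 and 2.0. Thus S1_3 was low in some of the steepest members and high in others.

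The members included some of the most abundant transcripts of the vegetative bud. By mean FPKM, 10 of the 72 were among the 100 highest transcripts of stage I and 23 among the 500 highest. In stage II, 0 and 4 of the members had these ranks, and in stage III 0 and 1. Of all 137758 transcripts, 100 and 500 have these ranks by definition. A loss of rank after stage I follows from the falls that the rule requires. The most abundant member was c50590 (744 bp), sixth of all transcripts in stage I, with an FPKM of 6240, 6524 and 1919. It stood at 221, 413 and 613 in stage II and at 122, 101 and 83.1 in stage III, where its rank was 1633. At rank 10 in stage I was c98348 (712 bp), with 4517, 4743 and 1949, then 168, 306 and 492, then 73.7, 69.6 and 58.7.

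The next by level was c53964 (794 bp), with 3954, 4137 and 1939 in stage I, 216, 407 and 604 in stage II and 114, 92.7 and 82.0 in stage III. It was followed by c13858 (847 bp), with 2453, 3525 and 1308, then 157, 221 and 409, then 66.9, 58.3 and 37.2. These 4 most abundant members were all shorter than 1000 bp and fell 34.4-fold to 54.7-fold in all. Each of them was lowest in S1_3 within stage I, rose in level from S2_1 through S2_2 to S2_3, and was lowest in S3_3 within stage III. At stage III, c50590 and c53964 still had a mean FPKM of 102 and 96.3, so that a fall of this size left them well above the median of all transcripts with reads, 1.15.

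Together the members held 2.27%, 2.42% and 1.54% of the fragments of the stage I libraries, 0.257%, 0.336% and 0.468% in stage II and 0.111%, 0.107% and 0.0941% in stage III. The stage means were 2.08% ± 0.470 (SD, n = 3), 0.354% ± 0.107 (SD, n = 3) and 0.104% ± 0.00889 (SD, n = 3). The 95% Wilson confidence intervals of the single libraries were narrow, such as 1.534 to 1.545% for S1_3. They cover counting error only and leave out the spread between libraries. Since fragments copied by PCR are not independent molecules, they may be too narrow even for counting error. The 10 members highest in stage I took 41.8 to 54.7% of the members’ fragments in stage I, with the lowest share in S1_3, and 37.5 to 42.2% in stage III.

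**Figure D2:**
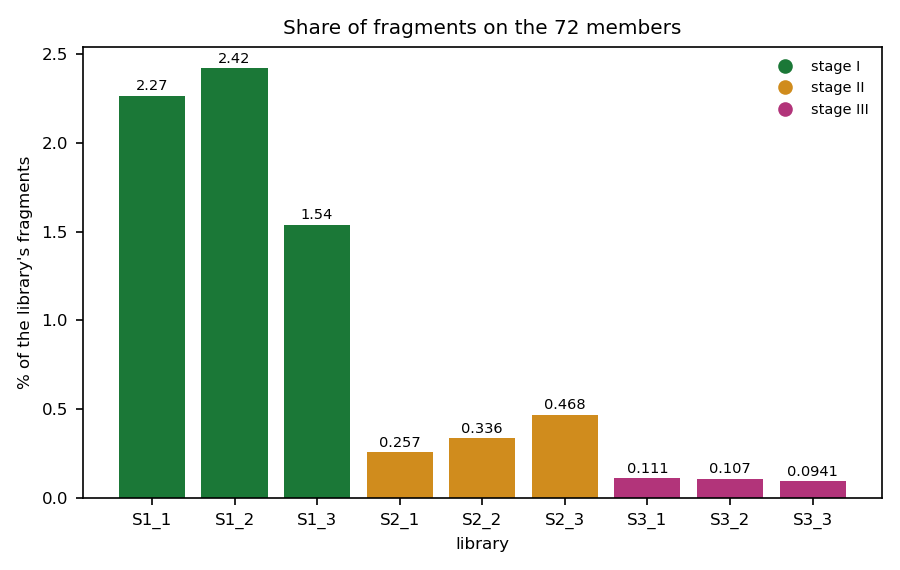
Percentage of the fragments of each library that lay on the 72 members, by library and colored by stage. The stage I libraries hold 1.54 to 2.42%, and within stage II the bars climb from 0.257% in S2_1 to 0.468% in S2_3.

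Among the members, the first step was usually the larger. Stage means of FPKM + 1 fell 1.73-fold to 50.3-fold from stage I to II, with a median of 4.41-fold, and 1.63-fold to 10.9-fold from stage II to III, with a median of 2.82-fold. The whole fall from stage I to III was 2.98-fold to 454-fold, with a median of 14.5-fold. On the log2 scale the median steps were -2.14 and -1.49, where the medians over the 51817 transcripts whose mean FPKM reached 1 were 0.14 and -0.02. With read counts scaled by library size with TMM factors (CPM) in place of FPKM, the median over the same transcripts moved to 0.03 for the first step, and the members’ median steps were -2.29 and -1.59.

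The first step was larger in 54 members and the second in 18. Expressed as the part of the log2 fall that took place in the first step, the median was 58.9%, with a range of 30.4 to 76.1%. In 63 members this part lay between 33.3 and 66.7%, in 8 it was above and in 1 below. At one end, c9429 (1605 bp) fell from 344, 418 and 389 to 37.7, 38.3 and 46.2 and then only to 21.5, 22.2 and 15.7, with 76.1% of its fall in the first step. The first step took 75.4% in c80597 (709 bp), which went from 150, 238 and 79.4 through 9.09, 8.58 and 14.3 to 4.91, 4.34 and 2.75. In c19162 (813 bp) it took 71.6%. Even these 3 fell further at the second step, by 2.01-fold, 2.33-fold and 2.35-fold.

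At the other end was c98090 (732 bp), the only member with under 33.3% of its fall in the first step. Its FPKM was 773, 870 and 792 in stage I, 212, 245 and 458 in stage II and 34.8, 32.8 and 27.7 in stage III, a fall of 2.65-fold followed by 9.34-fold. With 32 full-length long reads it was also the member best supported by long reads. In c38308 (862 bp) the values were 1822, 1915 and 1230, then 427, 458 and 732, then 111, 101 and 90.5, with 40.2% of the fall in the first step. For c55218 (735 bp), at 39.7%, they were 131, 159 and 118, then 20.7, 49.0 and 69.5, then 10.2, 9.13 and 5.93. The largest second step was that of c43057 (760 bp), 10.9-fold, with an FPKM of 1715, 1457 and 1141 in stage I, 121, 183 and 334 in stage II and 21.0, 24.9 and 9.87 in stage III. These 4 were short and abundant transcripts that kept a mean FPKM of 46.4 to 539 at the floral meristem stage.

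The shallowest falls were those of c183118, c3170 and c96088, chosen here after their values were seen. In c96088 (782 bp) the FPKM was 1220, 1042 and 827 in stage I, 492, 524 and 504 in stage II, and 314, 311 and 277 in stage III. It fell 2.03-fold and then 1.68-fold, and was the most abundant member in stage III. For c3170 (1428 bp) the values were 38.6, 27.4 and 26.6, then 14.3, 14.99 and 14.6, then 8.37, 9.08 and 8.43, and c183118 fell 2.98-fold in all. The stage II libraries of c96088 and c3170 were narrow, with an SD of 16.2 around 507 FPKM and of 0.33 around 14.7 FPKM (n = 3). In falls this shallow the rule leaves little room for spread within stage II, so this narrowness was set by the choice.

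Members that fell far at the first step tended to fall far at the second. Across the 72 members, the log2 sizes of the 2 steps had a Pearson correlation of 0.54 and a Spearman correlation of 0.53. Both steps use the same stage II values, and the members share all 9 libraries, so this is a description of the set without a p value. The 1 added to FPKM also makes both steps look smaller in low members, and its part in the correlation was not tested.

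**Figure D3:**
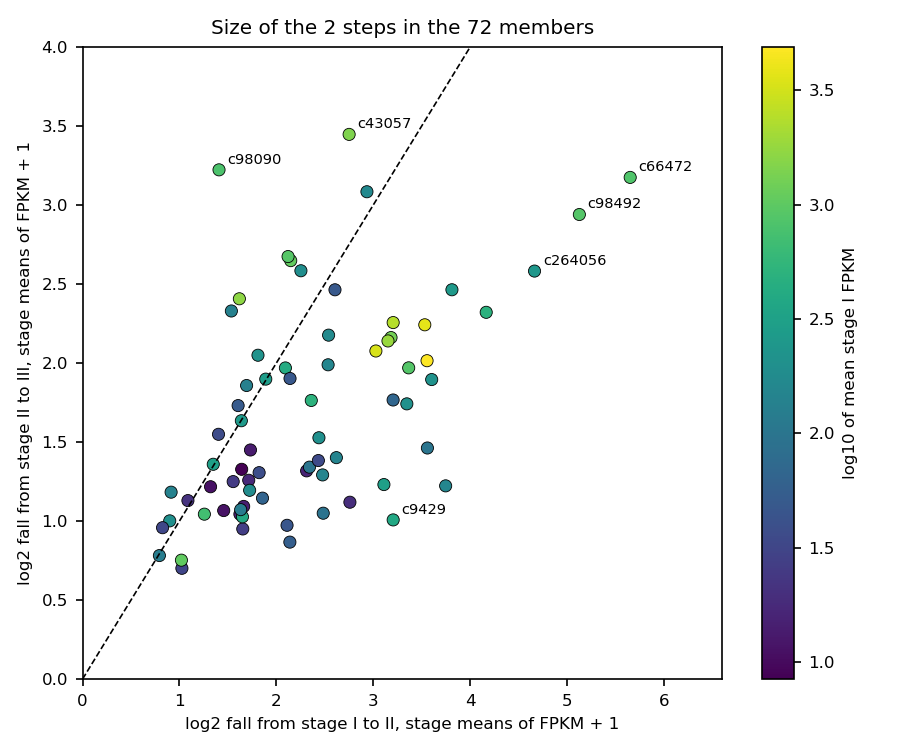
Log2 fall of stage means of FPKM + 1 from stage I to II (x axis) and from stage II to III (y axis) in the 72 members, colored by the log10 of the mean stage I FPKM, with a dashed line where both steps are equal. Most points (54) lie below the line, and c98090 lies farthest above it, with steps of 2.65-fold and 9.34-fold.

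Levels and lengths went together within the set. The 10 members whose mean stage I FPKM reached 1000 were all under 1000 bp and fell by a median of 39.9-fold. The 36 members between 100 and 1000 fell by a median of 17.1-fold, and 21 of these were under 1000 bp. The 26 members under 100 had a median length of 1575 bp and fell by a median of 8.02-fold. A pseudocount of 1 makes the fall of low transcripts look smaller, so the last value is an underestimate relative to the first. The stage I level is also a part of the fall itself, so a larger fall in the higher classes is partly built in. Across the members, log2 length and log2 stage I level had a Pearson correlation of -0.48 and a Spearman correlation of -0.45, again as a description.

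Of the 72 members, 37 (51.4%) were shorter than 1000 bp, against 18.1% of the transcripts whose mean FPKM reached 1. Abundant transcripts in general were short, however. At a stage I mean of at least 100, 31 of 46 members (67.4%) and 947 of all 1555 transcripts (60.9%) were under 1000 bp. At 10 to 100 these numbers were 5 of 25 (20%) and 3299 of 12451 (26.5%). The longest members were c12351 (3317 bp), c1042 (2586 bp) and c18045 (2562 bp). Of these, c12351 fell from 10.7, 10.7 and 13.5 through 3.50, 3.52 and 3.76 to 1.58, 0.60 and 1.4, and c18045 from 13.0, 17.7 and 12.2 through 3.45, 3.51 and 4.50 to 1.17, 1.27 and 1.34. The level of c1042 was higher, with a mean FPKM of 282 ± 113, 75.4 ± 19.6 and 19.5 ± 1.88 (SD, n = 3) in the stages.

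Long reads came from a pool of all stages and were not used by the rule. At least 2 full-length reads supported 32 members (44.4%), compared with 32.7% of those whose mean FPKM reached 1, and at least 10 supported 11 members (15.3%, compared with 5.31%). After c98090 and c16210, the third highest number was the 25 full-length reads of c70643 (2177 bp), whose FPKM was 107, 93.8 and 87.5 in stage I, 13.1, 14.7 and 21.1 in stage II, and 7.82, 8.31 and 6.0 in stage III. At a stage I mean of at least 100, 41.3% of the members and 56.5% of all transcripts had at least 2 full-length reads, so the order of these shares depended on the level compared. Of all transcripts at this level, 22.8% had at least 10 full-length reads. Whole-number counts in every library, within a tolerance of 0.005, were found in 5 of the members (c2972, c2494, c3566, c23269 and c83596), or 6.94%. The share was 8.85% of the transcripts whose mean FPKM reached 1, and 7.14% of those that also had a stage I mean of at least 100. For the other 67, RSEM had divided some reads among similar transcripts, so that a change in 1 copy could be counted in part on another.

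The order of the libraries within a stage was not set by the rule, and here the members resembled each other. Within stage II, 57 of the 72 members (79.2%) were highest in S2_3 and 54 (75%) were lowest in S2_1. Of the transcripts with a stage II mean of at least 1, 32.1% were highest in S2_3 and 25.7% lowest in S2_1. Of the transcripts that fell at the first step only and had such a mean, 41.3% were highest in S2_3 and 34.7% lowest in S2_1. In 44 members (61.1%) the level rose from S2_1 through S2_2 to S2_3, an order found in 13.2% of the transcripts whose overall mean FPKM reached 1. Transcripts share their libraries and are not replicates, so these shares are given without a test.

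Of the 9 floral transcripts, 8 were highest in S2_1 within stage II, and SEP3 (c49771) was highest in S2_3. S2_1 was also the highest library for 43.7% of the transcripts with a stage II mean of at least 1, and for 46.6% of those rising at both steps. The summed FPKM of the 9 was 35.7 in S2_1, 15.1 in S2_2 and 17.9 in S2_3, while the members took 0.257%, 0.336% and 0.468% of the fragments. PI (c9787), which specifies petals and stamens in Arabidopsis, was at 4.02 in S2_1 against 0.42 and 0.59, and AP1 (c128329), which specifies floral meristems and sepals there, at 6.34 against 3.85 and 3.29. Thus the library lowest in the members was the highest in the summed floral transcripts, while S2_2 and S2_3 did not follow the reverse order of the members. The part of this in the members’ spread was not tested. In overall profile, the squared correlations with S3_1, S3_2 and S3_3 were 0.946, 0.952 and 0.952 for S2_1 and 0.948, 0.951 and 0.955 for S2_2, so that S2_1 was the closest to S3_2 and S2_2 to the other two. Those of S2_3 were lower, at 0.933 to 0.942.

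The ratio of S2_3 to S2_1 was 0.66 to 8.80 over the members, with a median of 1.59, against a median of 0.96 over the transcripts whose mean FPKM reached 1. It was widest in c264056, at 8.80, followed by c98492 at 4.12 and c2972 at 4.03. The 28 members with a ratio of at least 2 had a median stage I FPKM of 338 and a median fall from stage I to III of 33.8-fold, against 110 and 8.26-fold in the other 44. Most of the weaker members, on the other hand, had level stage II libraries. Their ratio had a median of 1.17 in the members under 100 FPKM in stage I, and of 2.62 in those of at least 1000. The rule demands a larger gap between stages I and III where the stage II libraries are more widely spread. These contrasts in fall and in level are therefore partly set by the choice of the members.

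**Figure D4:**
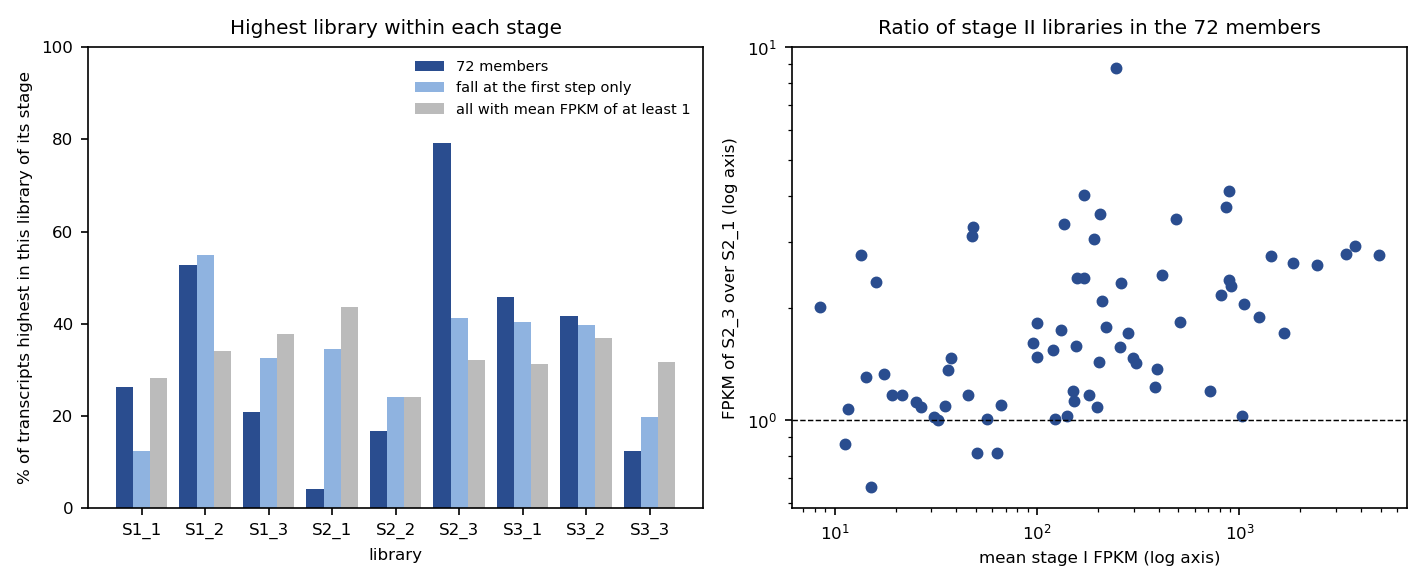
Left, percentage of transcripts whose highest library within a stage was the one on the x axis, for the 72 members, the transcripts that fell at the first step only and all whose mean FPKM reached 1 (the last 2 groups with a mean of at least 1 in the stage). Right, ratio of FPKM in S2_3 to S2_1 against the mean stage I FPKM, both on log axes, in which 57 members highest in S2_3 make up the tall bar of 79.2% and the ratio is as high as 8.80.

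In stage I, 50 members (69.4%) were lowest in S1_3 and 15 (20.8%) highest, against 45.7% and 37.7% of the transcripts with a stage I mean of at least 1. Of the transcripts rising at both steps with such a mean, 60.6% were lowest and 24.8% highest in S1_3, so this leaning was not confined to the members. The level of S1_3 relative to the mean of S1_1 and S1_2 had a median of 0.73 over the members and of 0.90 over all whose mean FPKM reached 1. It ranged from 0.23 in c116843 (1054 bp), with an FPKM of 10.8 in S1_3 against 41.0 and 53.5, to 2.44 in c2494. In 14 members (19.4%) S1_3 was under 0.5 times that mean, as it was in 22.2% of the transcripts whose mean FPKM reached 1. The median of this ratio was 0.59 in the 28 members with S2_3 at least 2 times S2_1 and 0.80 in the other 44. Across the 72, the log2 values of both ratios had a Pearson correlation of -0.13 and a Spearman correlation of -0.20, given as a description over members that share all libraries. In stage III, 46 members (63.9%) were lowest in S3_3, against 34.3% of the transcripts with a stage III mean of at least 1, 49.3% of those that fell at the first step only and 47.7% of those rising at both steps.

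The rule was also applied to 8 libraries, and the library left out was then read. A transcript that passes in both is a member by definition. The number that held was therefore 72 each time, and the shares restate how far the set grew without a library. Without S1_1, 75 transcripts met the rule, and 72 of these (96.0%) were also at least 1.5 times above stage II in S1_1. The shares were 90% for S1_2 (72 of 80) and 78.3% for S1_3 (72 of 92). Among all 97447 transcripts with reads, 6.64%, 9.64% and 8.70% met the same limit in these libraries. These transcripts are not matched to the members by level. Their stage III mean FPKM was under 1 in 48.0%, against 9.72% of the members. In S1_3, 84 of the 92 lay above stage II without regard to the fold, so that 8 went against the pattern in this library.

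The stage II libraries had to meet a limit on both sides. Of the transcripts chosen without S2_1, 59.5% (72 of 121) met both limits in S2_1, compared with 72% (72 of 100) for S2_2 and 73.5% (72 of 98) for S2_3. Over all transcripts with reads these shares were 0.195%, 0.209% and 0.269%. The size of the set therefore depended most on S2_1, without which it grew from 72 to 121 transcripts. In stage III the limit was met in S3_1 by 77.4% (72 of 93), in S3_2 by 73.5% (72 of 98) and in S3_3 by 92.3% (72 of 78), against 1.79 to 2.68% of all transcripts with reads.

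**Figure D5:**
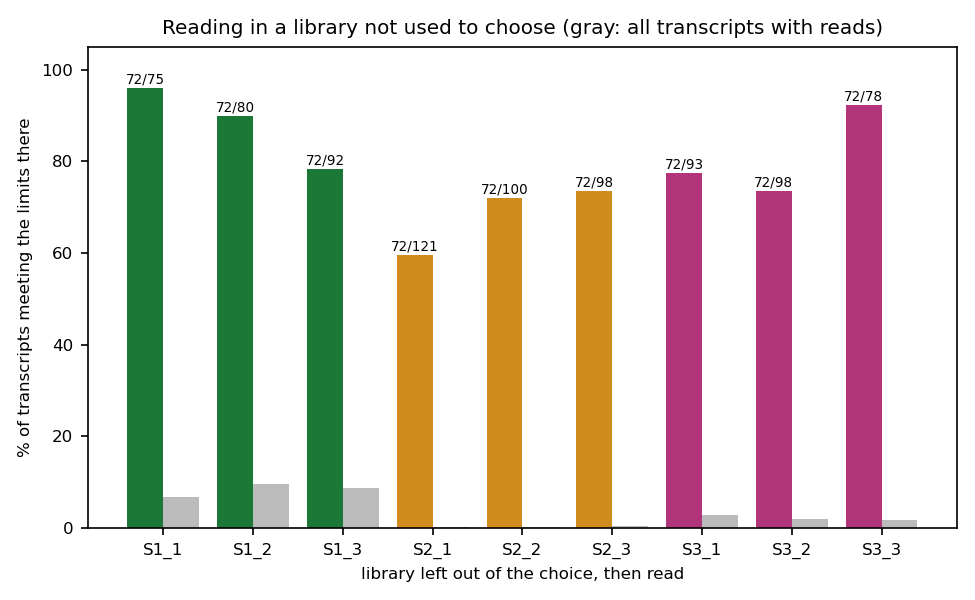
Percentage of the transcripts chosen by the rule in 8 libraries that also met its limits in the library left out (colored by stage, with numbers met and chosen), beside the percentage of all transcripts with reads that met them (gray). The share is highest for S1_1, 96.0%, and lowest for S2_1, 59.5%, and the gray bars are at most 9.64%. The number met is the same in every bar by construction, and the gray group is not matched by level.

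Falling at both steps was rare beside falling at the first alone. Stage I lay at least 1.5 times above stage II without overlap in 2682 transcripts (1.95% of the 137732 left after those matched to flowering genes), and stage II above stage III in 566 (0.411%). The 72 members were 2.68% of the former and 12.7% of the latter. For the mirrored rule, 7292 transcripts rose at the first step and 635 at the second. The 193 that rose at both were 2.65% of the former and 30.4% of the latter. Whether these shares differ was not tested, since transcripts are not independent of each other. Transcripts rising at both steps were 1275 bp long at the median and the members 954.5 bp. At the median, 60.0% of the rise took place in the first step, close to the 58.9% of the members’ fall.

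The limit of 1.5 cut through a continuous range. In 22 members the smaller of the 2 gaps was under 1.6, in 17 both gaps were at least 2 and in 5 both were at least 3. Just inside were c264056, c1282 (2210 bp, second gap 1.504) and c22763 (591 bp, first gap 1.506). Just outside were c120740, with a second gap of 1.499 and stage means of 52.7, 23.9 and 13.0, c280409, with 1.497 and means of 11.9, 3.79 and 2.03, and c21845, with 1.497 and means of 45.0, 13.9 and 3.78. In all, 23 transcripts missed at 1 step by a gap of 1.4 to 1.5, of which 19 missed at the second step and 4 at the first. The lowest member in stage I was c39665 (810 bp), at 7.19, 13.2 and 4.90, and it was the only member listed at 0 in a library, S3_2.

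Differential expression between stages was fitted with edgeR on the rounded counts of all transcripts, with the limits of a fold change over 2 and a q value under 0.001 that the study had applied with another tool, DESeq. By edgeR at these limits 0 members were called lower at the first step (background 0%), 0 at the second (background 0%) and 3 from stage I to III (background 0.00614%, or 4 of 65124 transcripts tested). The 3 were c66472, c50200 and c20344, with edgeR log2 fold changes of -10.0 (SE 0.30), -5.95 (SE 0.17) and -6.78 (SE 0.22). At an unadjusted p value under 0.05 and the same fold, edgeR called 70, 68 and 72 members lower (background 13%, 2.87% and 13.9%). DESeq2 with the q value under 0.001 called 67, 60 and 72 (background 3.86%, 1.05% and 5.75% of the transcripts with an adjusted p). At a q value under 0.05, edgeR called 70 of the 72 lower at the first step (background 7.98%) and 51 at the second (background 0.743%). From stage I to III it called 72 (background 10.3%). At the second step the members’ edgeR q values lay near this limit, with a median of 0.0326 and a maximum of 0.158, so small changes could move that count. The rule used the same values, so nothing is read from these counts. The p values measure only the spread between these libraries, which may be technical. The number of 3 depended on single libraries, as it was 65 without S1_3 (background 1.74%) and 0 with any other library of these stages left out.

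None of the 26 flowering transcripts met the rule, but 4 had stage means that fell in order, while 14 rose in order and 8 did neither. Of these 4, AGL15 (c105115), which encodes a MADS-domain repressor of flowering in Arabidopsis, had an FPKM of 10.7, 9.42 and 17.6 in stage I, 3.26, 3.13 and 3.47 in stage II and 2.35, 2.93 and 2.41 in stage III. It met the first limit with a gap of 2.33 but not the second, with a gap of 1.05. The other copy of AGL15 (c133723) was low throughout, at 0.72 to 0.81, then 0.19 to 0.22, then 0 to 0.21. In PDF2 (c2041), a homeodomain factor of the Arabidopsis epidermis, the stage means were 4.53, 1.84 and 1.34, and in PCFS4 (c3353), an Arabidopsis factor of mRNA 3′ end processing, 6.78, 3.76 and 3.29. For these 4 the second gaps were 0.89 to 1.05, so their stage II and III libraries overlapped or nearly touched.

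By edgeR at a fold change over 2 and a q value under 0.05, 3 of the 22 flowering transcripts tested were lower and 10 higher at the first step, where 7.98% and 9.49% of all transcripts were. At the second step 0 and 2 of 25 were called, against 0.743% and 0.734%, and from stage I to III 3 and 14 of 25, against 10.3% and 11.9%. At a q value under 0.001 edgeR called 0 of them at any step, where 0 to 0.00614% of all transcripts were lower and 0 to 0.00616% higher. At an unadjusted p value under 0.05 edgeR called 15, 8 and 20 in either direction, as it did 27.3%, 5.34% and 30% of all transcripts. The study chose these transcripts as differentially expressed in the same libraries, so their counts are not independent evidence of a direction.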

How the data were processed

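Per the study’s methods, the authors used ng_QC to filter paired reads, bowtie2 to place them on polished long-read transcripts and RSEM to count them. Versions are not given in the sources used here. For 9 libraries they deposited expected counts, raw and often fractional, together with FPKM, in which depth and effective length are divided out. Reads were not placed on a genome. Where members share reads with similar transcripts, their counts depend on how RSEM divided these reads.

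The rule was applied to FPKM + 1, and steps are log2 ratios of stage means of FPKM + 1. Expected counts were rounded, kept by filterByExpr (minimum count 10, minimum total 15), normalized by TMM and tested with the edgeR quasi-likelihood test with Benjamini-Hochberg adjustment, on the 6 libraries of each pair of stages. The SE of an edgeR log2 fold change is its size divided by the square root of the F statistic. Fragment length was estimated from the effective lengths of 10830 transcripts. Depth was 20065002 to 25195520 fragments per library. Conditions came from the sample titles. Alternatives were DESeq2, limma, other scalings, pseudocounts and limits, a replicate block and each library left out. The scripts were tested on simulated data. Used were R 4.3.3, edgeR 4.0.16, limma 3.58.1, DESeq2 1.42.0, Python 3.11.15, NumPy 2.4.6, pandas 2.3.3, SciPy 1.17.1, statsmodels 0.14.6 and Matplotlib 3.10.9.

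The members and lists were chosen with earlier results of these data known. The members named are the 12 steepest, the 4 most abundant in stage I, the 3 with the largest and the 3 with the smallest part of the fall in the first step, the 3 longest, the 3 with most full-length reads and those next to the limit. A few others (c43057 for its second step, c116843, c39665, the 3 with the shallowest falls and the members with whole counts) were named after their values were seen.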

Additional observations from a re-analysis of the deposited data

How the results depend on the processing

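The number of transcripts that met the rule was 72. It was 213 with a looser limit at each step, 17 with a limit of 2, 119 with a pseudocount of 0.1, 42 with 5, and 728 with stage means in place of the lowest and highest library. With each library left out it ranged from 75 to 121, highest without S2_1. With TMM-normalized CPM 64 transcripts met it, 57 of them members. The members’ median log2 step from stage II to III was -1.85 with a pseudocount of 0.1 and -1.10 with 5, and that from stage I to III -4.14 and -3.33. With a library left out, the first step ranged from -2.49 (without S2_3) to -1.96, the second from -1.66 to -1.33 and the whole fall from -3.94 to -3.76. The pooled share that held in a left-out library of stage II fell to 57.3% with a limit of 2, from 67.7%, and that of stage III to 67.1% with a pseudocount of 0.1, from 80.3%. No direction was reversed in any alternative run for the steps of the set or for the named members. With other pseudocounts or a library left out, the rule fixed this outcome in advance, so nothing is read from it.

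At a fold change over 2 and a q value under 0.001, members called lower between stages I and II were 0 in edgeR, 67 in DESeq2 (3.86% of all transcripts), 22 with all 9 libraries in 1 fit (0.83%) and 7 in limma (0.0906%), and 70 in edgeR at a q value under 0.05 (7.98%). Between stages II and III they were 0 in edgeR and 60 in DESeq2 (1.05%), and 51 in edgeR at a q value under 0.05 (0.743%). From stage I to III they were 3 in edgeR (0.00614%), 72 in DESeq2 (5.75%), 69 with all 9 libraries in 1 fit (1.85%), 60 in limma (0.828%) and 32 without a filter on low counts (0.0674%), and 72 in edgeR at a q value under 0.05 (10.3%). They ranged from 0 to 65 with a library left out (65 without S1_3, when 1.74% of all transcripts were called), and were 0 to 0 for both single steps. With the replicate number as a block they were 0, 0 and 0. The replicate numbers gave no sign of pairing, as deviations of same-numbered libraries correlated at -0.21 to 0.13, but this cannot exclude it. The cause of these differences was not tested. With TMM-normalized CPM, chosen after seeing the data, 55 members were highest in S2_3, 65 lowest in S2_1, 48 lowest in S1_3 and 46 lowest in S3_3.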
